A study of Mus musculus with 24 samples.

Results

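The genes described here are 31 that encode extracellular matrix and contractile cytoskeleton proteins of fibroblasts, out of 23420 genes in the deposited expression tables of a study of macrophages. They were chosen by symbol, from a view of their averaged levels in which 1 group, wild-type macrophages restimulated with IL-4, stood far above the rest. Their high level in that group is therefore a description here and carries no test. All 31 symbols were found in both tables. By role they are 6 CCN and matricellular proteins (Ctgf, Cyr61, Tnc, Thbs1, Sparc, Postn), 5 fibrillar collagens (Col1a1, Col1a2, Col3a1, Col5a1, Col5a2), 5 network and beaded-filament collagens (Col4a1, Col4a2, Col6a1, Col6a2, Col6a3), 8 proteoglycans, microfibril and matrix-bound proteins (Bgn, Dcn, Lum, Fbn1, Aebp1, Igfbp5, Sulf1, Timp3), 2 collagen assembly proteins (Lox, Serpinh1) and 5 contractile or cytoskeleton-linked proteins (Acta2, Tagln, Cald1, Fhl2, Fat1).

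Fibroblasts secrete fibrillar collagens, fold them with the chaperone Serpinh1, and cross-link them outside the cell with lysyl oxidase, Lox. In activated fibroblasts, TGF-beta signalling through Smad factors raises collagens and matricellular proteins, while tension on the actin cytoskeleton acts through YAP with TEAD factors and through serum response factor on genes such as Ctgf, Cyr61, Acta2 and Tagln. Macrophages are not known as a main source of fibrillar collagen, but they make some matrix proteins themselves, among them thrombospondin 1, the product of Thbs1.

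The study measured poly-A RNA in 24 samples of bone marrow-derived macrophages from male C57BL/6 mice aged 3 months, grown for 6 days with M-CSF, in 12 groups of 2. In the antagonist experiment (8 samples) cells had vehicle, IL-4, the PPAR-gamma antagonist GW9662 or IL-4 plus GW9662 for 24 h. In the memory experiment (16 samples) wild-type and Pparg knockout-labelled cells were left untreated or treated with IL-4 for 24 h. After a wash and 24 h of rest in differentiation medium, some of each were treated with IL-4 for 3 h. This gives, for each genotype, never exposed, first-exposed (IL-4 for the last 3 h only), washed-out (IL-4 for 24 h only) and restimulated (both) groups. IL-4 is labelled at 20 ng per ul. No dose of GW9662 and no allele or Cre driver of the knockout is given, and nothing says whether replicates were separate animals or cultures. The p-values therefore measure only the spread between these samples, which may be technical.

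Each deposited column is the mean of the 2 libraries of a group in reads scaled to library size (CPM). Because that mean is built from whole reads of each library, the 2 libraries could be separated for 170832 of 171808 values above 0 (99.4%). They are called the deeper and the shallower library of a group by their number of reads, and their replicate numbers are not known. Reads in genes ranged from 15980293 to 27612706 per library in the antagonist and from 5448236 to 16681503 in the memory experiment, so that 3 reads equal 0.105 to 0.181 CPM and 0.183 to 0.526 CPM. Levels below these values are at the floor of the counting.

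The members do not share much sequence with each other. Of the 50-base words of their longest coding transcripts, Col3a1 shared 1.67% with another gene and the other members shared less or none. Col4a1 and Col4a2 lie head to head on chromosome 8 (GRCm38, 11198423 to 11312826 and 11312805 to 11449287) and overlap at their starts, so their counts are uncertain there. Upstream sequences were at hand for 22 of the 31 members (27 sequences of 250 bases, RefSeq, GRCm38.p6). They are shown for 4 members, picked because these sequences hold the letters marked below, so they are not typical of the set. The other Cald1 sequence, for example, holds no TEAD letters. The marked letters were chosen because TEAD and serum response factor are the textbook regulators of this class. Capitals mark the TEAD letters CATTCC or their reverse complement GGAATG, the letters TATAAA, and in Fhl2 the CArG box, the motif of serum response factor. Each sequence runs 5′ to 3′ on the strand of the gene and ends at an annotated transcript start. For Fhl2 that start lies inside the gene (43123074 to 43196984).
Cyr61, a CCN family matricellular protein, chr3:145649986-145650235, minus strand: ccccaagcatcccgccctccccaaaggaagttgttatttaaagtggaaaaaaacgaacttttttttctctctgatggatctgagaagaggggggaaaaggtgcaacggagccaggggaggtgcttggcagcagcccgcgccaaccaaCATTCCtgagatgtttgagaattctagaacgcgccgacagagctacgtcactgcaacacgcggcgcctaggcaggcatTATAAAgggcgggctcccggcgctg
Col3a1, a fibrillar collagen, chr1:45311288-45311537, plus strand: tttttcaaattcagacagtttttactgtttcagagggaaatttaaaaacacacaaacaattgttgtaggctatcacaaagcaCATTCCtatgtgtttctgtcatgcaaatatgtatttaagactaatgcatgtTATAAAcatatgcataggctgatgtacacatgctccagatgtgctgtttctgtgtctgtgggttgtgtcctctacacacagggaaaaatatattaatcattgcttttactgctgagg
Cald1, the actin-binding protein caldesmon, chr6:34598254-34598503, plus strand: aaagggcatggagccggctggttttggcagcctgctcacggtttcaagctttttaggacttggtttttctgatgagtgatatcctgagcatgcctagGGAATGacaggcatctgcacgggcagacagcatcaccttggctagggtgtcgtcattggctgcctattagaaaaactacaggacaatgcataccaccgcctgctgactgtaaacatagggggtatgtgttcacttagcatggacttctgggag
Fhl2, a LIM-domain protein that binds actin-linked and nuclear partners, chr1:43163962-43164211, minus strand: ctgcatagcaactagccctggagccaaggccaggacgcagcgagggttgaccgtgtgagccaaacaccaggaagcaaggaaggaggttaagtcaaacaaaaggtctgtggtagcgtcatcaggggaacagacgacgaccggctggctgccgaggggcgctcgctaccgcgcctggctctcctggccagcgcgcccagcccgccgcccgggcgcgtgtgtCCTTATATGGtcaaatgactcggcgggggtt

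The TEAD letters, searched on both strands, stood in 7 of the 27 member sequences (25.9%, in Cyr61, Col3a1, Col6a2, Igfbp5, Acta2, Cald1 and Fat1) against 12.6% of all 32851 upstream sequences of the same length. The TATAAA letters, also searched as TTTATA, stood in 7 sequences of 6 members (25.9% against 12.4%). The CArG box was searched only as the letters CC, then 6 letters A or T, then GG. In this form it stood in 2 sequences, both of Fhl2 (7.41% against 1.47%). Near matches were not counted, such as ccctatatgg and ccttgtttgg in the Acta2 sequence, so the other members are not shown to lack a CArG box. These are matches of letters and not sites shown to be bound, and their shares carry no test. Some of these sequences lie largely in an annotated exon. Of the 250 bases, 217 did so in Acta2, 226 in Col6a2 and 223 in the Fhl2 sequence not shown. Cyr61 and Col3a1 had 0 such bases, Cald1 4, Fat1 12 and Igfbp5 19. The Fat1 sequence lies inside its gene.

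In the restimulated wild-type group, 27 of the 30 members other than Thbs1 stood at 20 CPM or more in the deeper library and 21 at 100 CPM or more. Thbs1 was not separated there and is not in these counts, but each pair possible for it gives 1585 CPM or more. The 30 members other than Thbs1 summed to 7122 CPM in that library and to 257 CPM in the shallower one. The same sum was 20.7 to 35.3 CPM over the 6 other wild-type libraries of the memory experiment. Among the 8 knockout-labelled libraries it was 89.1 CPM in the shallower first-exposed library, 40.1 CPM in the shallower washed-out library, and 6.99 to 12.1 CPM in the other 6. In the antagonist experiment it was 6.10 to 11.4 CPM in all 8 libraries. Without Thbs1, a single library of the 24 thus carried nearly all of the RNA of these 30 members. Its partner, which had the same treatment, stood at the next highest level. This does not hold for Thbs1, which other groups expressed as well.

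**Figure D1:**
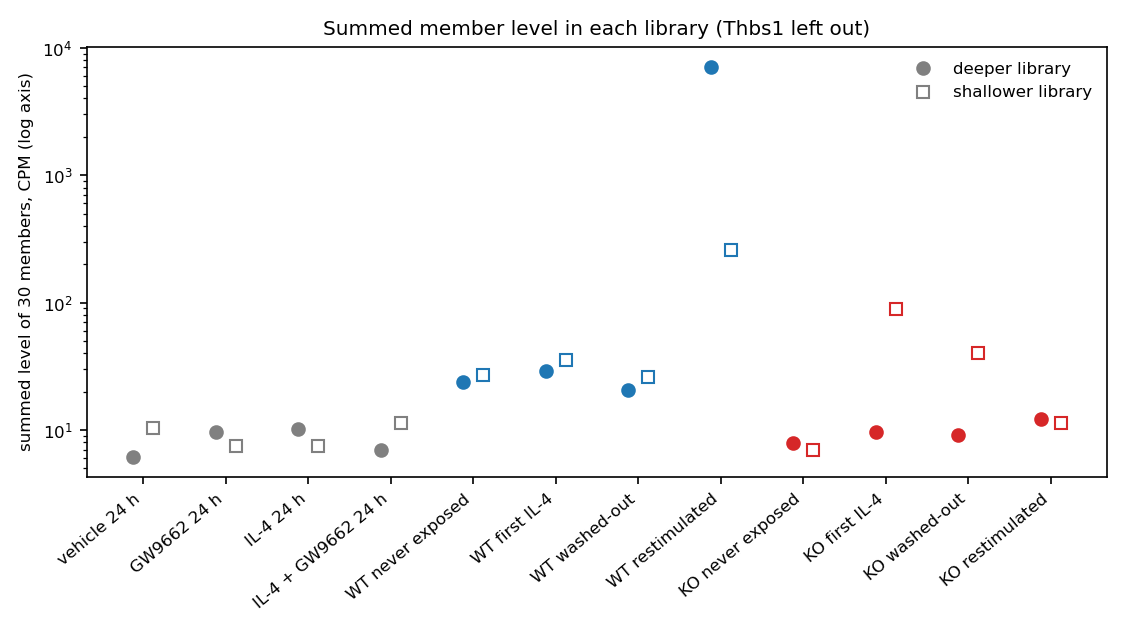
Summed level of the 30 members other than Thbs1 in each of the 24 libraries, in CPM on a log axis, with 1 point per library and the groups named along the other axis. The deeper restimulated wild-type library (7122 CPM) stands above its partner (257 CPM), and the shallower first-exposed (89.1 CPM) and washed-out (40.1 CPM) knockout-labelled libraries stand above the other 6 of that genotype.

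Among the CCN and matricellular genes, Ctgf, a secreted CCN protein induced by TGF-beta and YAP, stood at 716 CPM in the deeper and 25.1 CPM in the shallower restimulated wild-type library, with 0.301 to 1.25 CPM (median 0.528) in the other 6 wild-type libraries. Cyr61, its relative in the CCN family, stood at 178 and 7.13 CPM against 0 to 0.446 CPM. Tnc, the matricellular protein tenascin C, stood at 392 and 12.5 CPM against 0 to 1.06 CPM. In all 3 the libraries of the restimulated group lay above each of the other wild-type libraries and far apart from each other. Sparc, a collagen-binding glycoprotein, stood at 354 and 15.2 CPM against 0.773 to 2.16 CPM. Postn, periostin, was the lowest of those that could be separated, at 22.9 and 2.85 CPM against 0 to 1.54 CPM.

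Thbs1, which binds matrix and cell surface receptors and can activate latent TGF-beta, had a group mean of 1129 CPM, the highest of any member. It was also the only member whose mean in that group did not separate into 1 pair: 3 pairs of whole reads give the same mean, 2181 and 77.5 CPM, 1883 and 376 CPM, or 1585 and 674 CPM. In each of the 3 pairs the deeper library is the higher. Thbs1 is also the member that macrophages of every other group expressed, at 7.58 to 128 CPM in the other wild-type libraries and 3.06 to 83.7 CPM in the other 6 knockout-labelled libraries.

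The fibrillar collagens were led by the type I chains. Col1a1 stood at 492 and 16.9 CPM against 2.11 to 4.2 CPM in the other wild-type libraries, and Col1a2 at 464 and 16.8 CPM against 2.19 to 3.97 CPM. Col5a2, Col5a1 and Col3a1, whose chains form mixed fibrils with type I collagen, stood at 252, 121 and 114 CPM in the deeper and 7.89, 3.07 and 3.40 CPM in the shallower library. Per kilobase of transcript, which allows genes to be compared, Col1a2 (86.8 CPM per kb) and Col1a1 (82.9) were alike and Col3a1 (20.5) lower in the deeper library. The network collagens followed the same order of libraries: Col6a3, a chain of the beaded filaments, at 249.5 and 9.76 CPM, Col4a1, a basement membrane chain, at 130.1 and 3.95 CPM, Col6a1 at 109 and 2.96 CPM, Col6a2 at 88.9 and 2.63 CPM and Col4a2 at 74.2 and 2.30 CPM.

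Among the proteoglycans and matrix-bound proteins, Bgn, the small proteoglycan biglycan, stood at 480 and 16.7 CPM against 0.502 to 2.70 CPM, and Timp3, a metalloproteinase inhibitor held in the matrix, at 451 and 17.0 CPM against 0.301 to 1.36 CPM. Aebp1, a collagen-binding protein, stood at 236 and 8.44 CPM, and Fbn1, the microfibril protein fibrillin 1, at 84.8 and 2.19 CPM. Sulf1, a heparan sulfate sulfatase, was lower, at 20.7 and 1.10 CPM. The remaining 3 of this class were low even in the library that was high for the others. Igfbp5, an IGF-binding protein, stood at 5.05 and 0.110 CPM, Dcn, the proteoglycan decorin, at 0.791 and 0.329 CPM, and Lum, the proteoglycan lumican, at 0.0609 and 0 CPM, which is at the floor. Decorin and lumican are abundant in many tissue fibroblasts, so the label of the set does not hold for every marker it contains.

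Of the collagen assembly genes, Lox stood at 364 and 13.8 CPM against 0.331 to 1.45 CPM in the other wild-type libraries, and Serpinh1 at 269 and 11.8 CPM against 0.104 to 1.47 CPM. Of the contractile genes, Acta2, smooth muscle actin, stood at 541 and 23.8 CPM against 3.74 to 6.43 CPM, and Tagln, the actin-binding protein transgelin, at 391 and 12.5 CPM against 1.81 to 3.76 CPM. Cald1 stood at 289 and 8.0 CPM and Fat1, an atypical cadherin linked to the actin cytoskeleton, at 209.8 and 8.0 CPM. Fhl2 stood at 20.8 and 0.767 CPM and at 0 in the other 6 wild-type libraries, where 0 reads allow up to 3 reads per library.

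Per kilobase of transcript in the deeper library, the highest separated members were Ctgf (287.6 CPM per kb), Acta2 (266), Tagln (245), Bgn (198) and Sparc (154). Dcn (0.450) and Lum (0.0249) were the lowest. Thbs1 was not separated there and is left out, but at 1585 to 2181 CPM over 5848 bases it would stand among the highest. The class medians leave it out too, and that of the CCN and matricellular genes would be higher with it. Median levels by class were 97.6 CPM per kb for collagen assembly, 88.0 for the CCN and matricellular genes without Thbs1, and 60.5 for the contractile genes. They were 38.1 for the fibrillar collagens, 19.7 for the network collagens and 5.39 for the proteoglycan class. The order of the first classes therefore holds only without Thbs1. In the other 6 wild-type libraries the order was led by Thbs1 (median 5.08 CPM per kb), Acta2 (2.55) and Tagln (1.72).

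**Figure D2:**
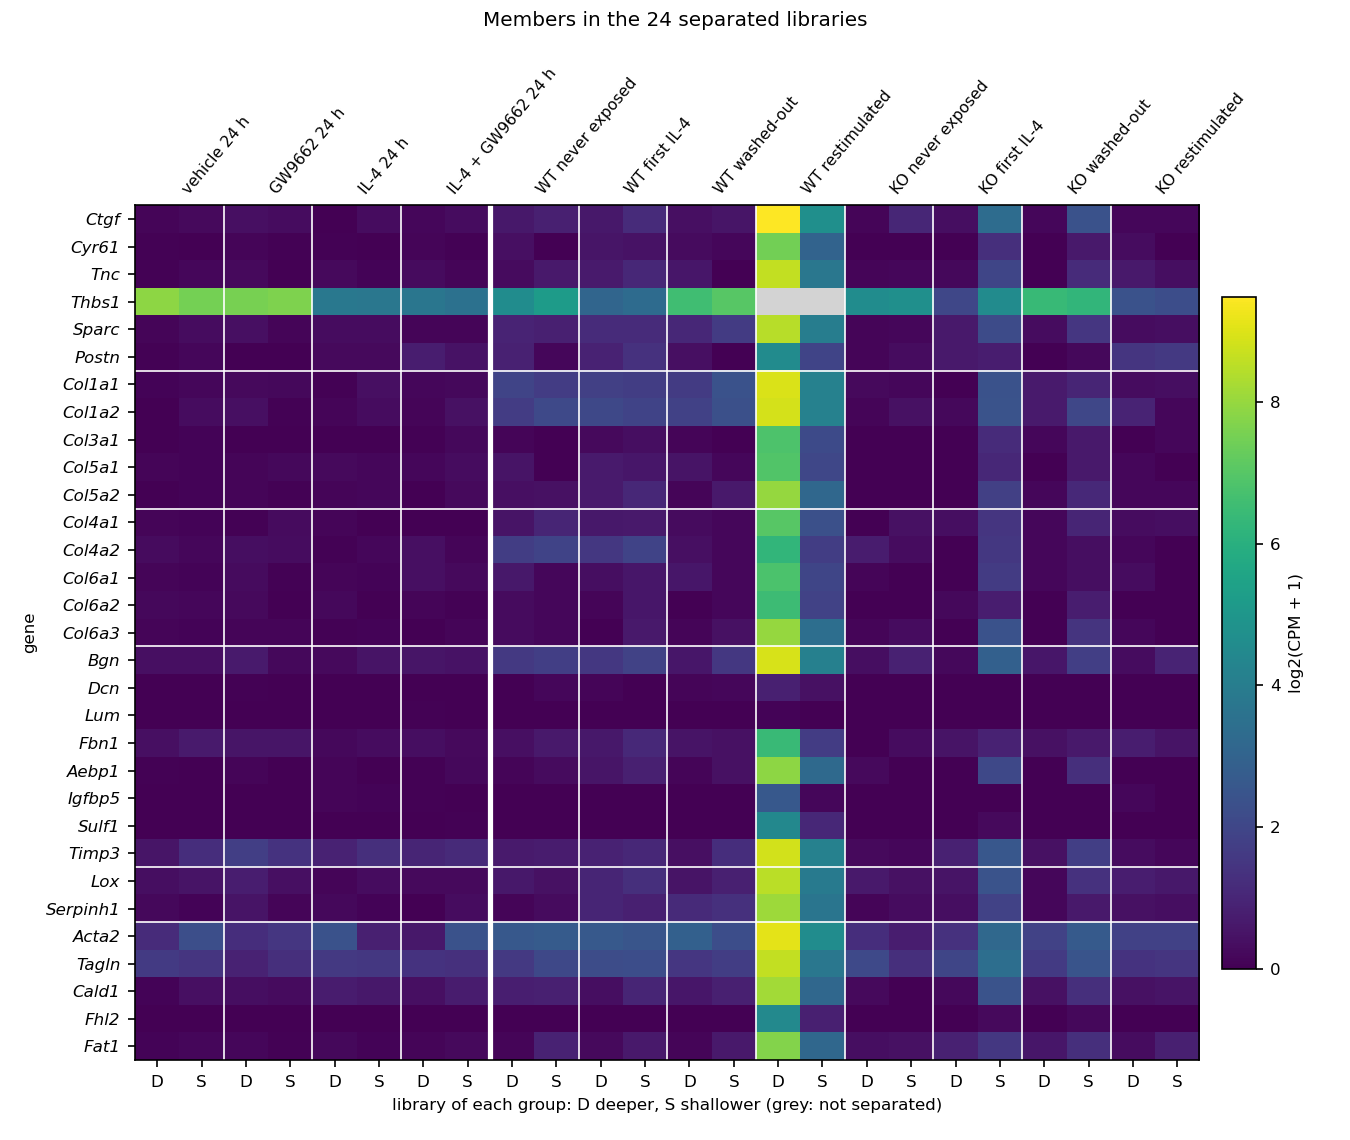
Level of each of the 31 members (rows, ordered by role) in each library (columns, by group), as log2 of CPM plus 1, with lighter colour for higher levels and grey where Thbs1 was not separated. The column of the deeper restimulated wild-type library is high for nearly all members (27 at 20 CPM or more, Thbs1 not counted). Thbs1 is the row with the highest levels in the other groups.

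Most of the members differed by a similar factor between the 2 restimulated wild-type libraries. Over the 27 separated members at 20 CPM or more, the shallower library held a median of 3.51% of the level in the deeper one. The share ran from 2.54% for Col5a1 to 12.4% for Postn. Of the low members outside these 27, Dcn stood apart, at 0.791 and 0.329 CPM. The level in the shallower library followed that in the deeper one (across these 27 genes, which share the libraries and are not independent, Pearson r = 0.946 on log2 levels and Spearman rho = 0.975). Among all 9064 separated genes at 10 CPM or more in the deeper library, 243 (2.68%) were at least 10 times as high there as in the shallower one. These 243 held 26 of the 27 members, Postn being the exception. The members were chosen with the high mean of this group in view, and the 27 for their level in the deeper library. Their low share in the shallower library and this count are therefore partly built in and are a description only.

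A similar order of members appeared at a lower level in 2 knockout-labelled libraries with other treatments, picked for their high member sums. In the shallower first-exposed library the 27 members stood at a median of 1.08% of the deeper restimulated wild-type library (0.761% for Tnc to 3.06% for Postn, r = 0.900, rho = 0.912), and in the shallower washed-out library at 0.517% (0% for Sulf1 to 1.15% for Tagln, r = 0.833, rho = 0.864). The median share was lower in the other library of each of these groups, at 0.0354% and 0.0675%, and the order of the members was not compared there. Ctgf stood at 9.30 CPM in the shallower and 0.28 CPM in the deeper first-exposed knockout-labelled library, and at 4.23 and 0.12 CPM in the washed-out ones. Col1a1 stood at 4.21 and 0 CPM in the first-exposed and at 0.99 and 0.60 CPM in the washed-out libraries. In the other 12 libraries of the memory experiment the median share was 0.0329% to 0.398%. The order of the members was not compared in any of these 12, so it is not shown to be particular to the libraries above.

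A further 73 genes that are no members were chosen for a level of 20 CPM or more in the deeper restimulated wild-type library and a mean of at most 0.5 CPM in the 5 memory groups other than restimulated wild type and first-exposed and washed-out knockout-labelled cells. Their low share in those 5 groups is fixed by that choice. The choice also used the deeper restimulated wild-type library, so a low share in its partner, at a median of 3.49%, is partly built in. The first-exposed and washed-out knockout-labelled groups were not used. There the median share was 1.41% in the shallower and 0% in the deeper first-exposed library, and 0.582% and 0% in the washed-out ones. These genes, too, were thus unequal between the libraries of both knockout-labelled groups, which is given as a description with no test.

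**Figure D3:**
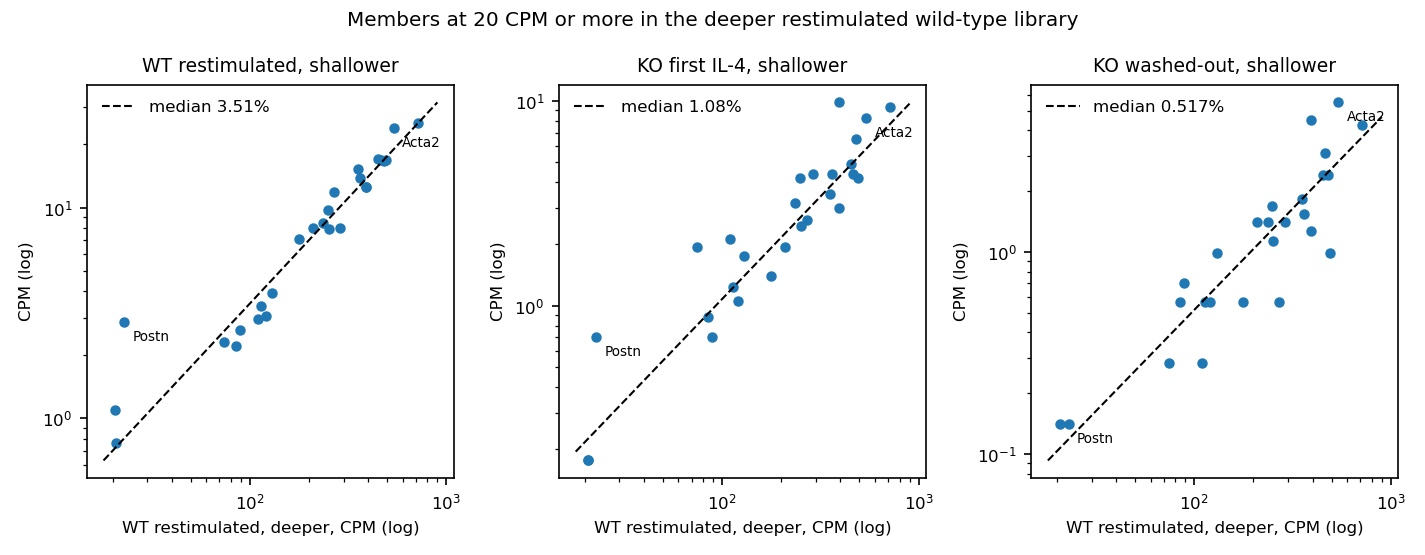
Level in CPM of the 27 separated members at 20 CPM or more in the deeper restimulated wild-type library (horizontal, log axes). The vertical axes, 1 panel each, are its partner, the shallower first-exposed and the shallower washed-out knockout-labelled library. Sulf1, at 0, is not drawn in the last. The points lie along dashed lines at the median shares of 3.51%, 1.08% and 0.517%, with Postn above the first and second.

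Markers of other cell types in that library, which was grown as macrophages, were read beside the members. Of 24 fibroblast markers outside the members, 16 stood at 1 CPM or more in the deeper library and 13 were at least 10 times as high as in the shallower one. Their sum was 894 CPM in the deeper and 45.5 CPM in the shallower library, against 13.2 to 17.7 CPM in the other wild-type libraries, led by Fbln2 (155 and 4.71 CPM), Col12a1 (146 and 3.95 CPM) and Fstl1 (141 and 5.04 CPM). The fibroblast markers Mfap4 and Dpt were at 0, and Thy1 stood at 0.91 CPM. The 12 smooth muscle and pericyte markers outside the members summed to 592 and 109 CPM (73.3 to 94.6 CPM elsewhere in wild type), led by Tpm1 (281 and 76.1 CPM). Tpm1 alone stood at 59.8 to 70.2 CPM in the other wild-type libraries. Of these 12 markers, 10 stood at 1 CPM or more in the deeper library. At least 10 times the shallower library were 6 of them, among these Tpm2 (93.2 and 2.52 CPM) and Myl9 (85.2 and 2.19 CPM). Des, desmin, was at the floor.

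Endothelial markers summed to 12 CPM in the deeper and 3.18 CPM in the shallower library, against 2.05 to 6.16 CPM in the other wild-type libraries, so that the deeper library lay above that range. Epithelial markers summed to 4.87 and 5.81 CPM (3.29 to 4.86 CPM elsewhere in wild type), adipocyte markers to 1.89 and 2.85 CPM (0 to 1.16 CPM) and lymphocyte markers to 3.65 and 5.81 CPM (2.60 to 4.53 CPM). Osteoblast and cartilage markers summed to 95.6 and 27.8 CPM (11.4 to 40.8 CPM), of which Col2a1, the cartilage collagen, made 53.0 and 1.97 CPM. Neutrophil and mast cell markers summed to 156 and 40.9 CPM against 29.4 to 73.4 CPM in the other wild-type libraries. The 5 macrophage markers that could be separated summed to 860 and 1059 CPM, against 937 to 1191 CPM in the other wild-type libraries, so that the deeper library lay below and the shallower within that range. Fewer cells of a type and less RNA per cell cannot be told apart in such bulk samples, and the part of other cells in the level of the members was not tested.

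Genotype markers were read in the 2 knockout-labelled libraries with traces of the members. Pparg itself stood at 19.0 to 34.8 CPM in the wild-type and 19.9 to 45.5 CPM in the knockout-labelled libraries, and since the deleted part is not stated it does not check the labels. Lyz2, the macrophage lysozyme, chosen after its values were seen, had group means of 21966 to 30727 CPM in wild type and stood at 11.8 to 44.2 CPM in all 8 knockout-labelled libraries. In the shallower first-exposed and washed-out knockout-labelled libraries Lyz2 stood at 30.5 and 44.2 CPM, against 11.8 to 42.6 CPM in the other 6. The source of the member RNA in these libraries was not tested.

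The difference between the restimulated wild-type libraries also followed transcript length. Across 8774 genes the log2 ratio of the deeper to the shallower library correlated with length at rho = 0.729, against -0.370 to 0.536 in the other 11 groups, with a median of -0.76 in the shortest 10% of genes and 0.94 in the longest 10%. The 27 members had a median log2 ratio of 4.65, from 2.64 for Postn to 5.01 for Cald1, at lengths of 1563 to 14814 bases for all 31. Their ratio lay above the median of the longest 10% for each of the 27, and within them the correlation with length was 0.33. Since the 27 were chosen for a high level in the deeper library, a high ratio is partly built in. The part of transcript length in the ratio of the members was not tested.

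**Figure D4:**
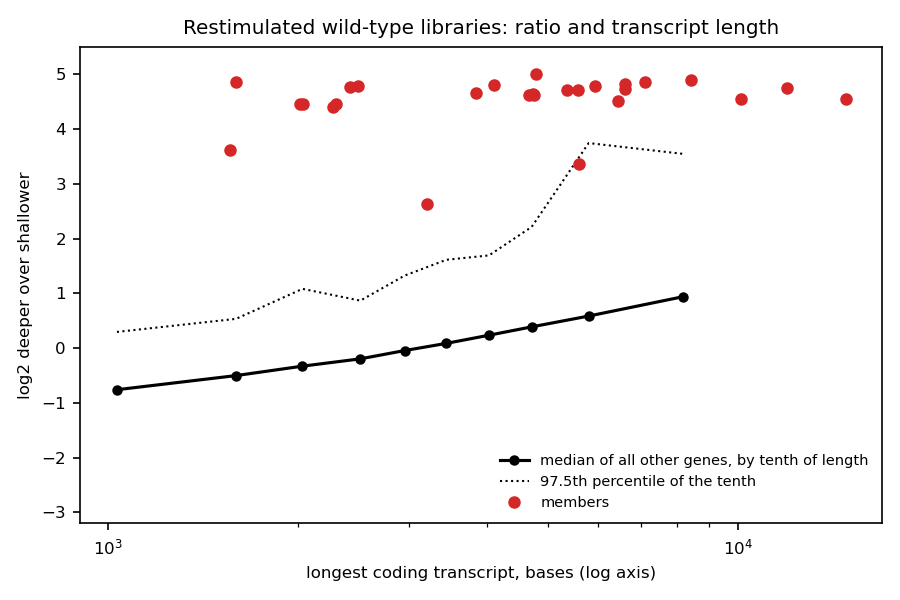
Log2 ratio of the deeper to the shallower restimulated wild-type library against transcript length in bases (log axis). Points are the 27 separated members at 20 CPM or more. Lines are the median (solid) and an upper percentile named in the legend (dotted) of the other genes in each 10% of lengths. The median rises from -0.76 for the shortest to 0.94 for the longest genes, and the members lie between 2.64 and 5.01.

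The averaged columns carry that library into each comparison with the restimulated wild-type group. Values are on the log2(CPM + 1) scale, which understates changes of low genes, and these 3 comparisons have no test because the group chose the members. Restimulated against washed-out wild type, 29 of 29 members at 1 CPM or more were past 2-fold higher, with a median of 5.92 (1.84 to 8.08), against 10.7% of all 11958 genes, whose median was 0.073. Second against first exposure in wild type, 29 of 29 were past 2-fold higher with a median of 6.04 (1.84 to 7.62), against 6.78% of 11880 genes. Knockout-labelled against wild type after restimulation, 29 of 29 were past 2-fold lower with a median of -6.39 (-8.37 to -1.76), against 9.59% of 11894 genes. With the deeper wild-type library left out, the medians were 2.30, 2.33 and -2.84.

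Because second against first exposure is the contrast that the memory design is about, it was set out for each restimulated wild-type library by itself. Of 11667 genes that could be separated, 800 were past 2-fold higher and 105 lower with the average, 1023 and 106 with the deeper library alone, and 372 and 638 with the shallower library alone. The members past 2-fold higher were 28, 28 and 23 of 28. For 19 separated IL-4 induced genes, a list apart from the members, 9 were above the first exposure with the average, 8 with the deeper and 10 with the shallower library, at median log2 differences of -0.01, -0.17 and 0.06. Arg1, arginase 1, stood at 108 CPM after the first exposure and at 150 and 251 CPM in the deeper and shallower restimulated libraries. Socs1, a feedback inhibitor of cytokine receptors, stood at 268 CPM and then at 140 and 307 CPM. Fn1, fibronectin, which is both IL-4 induced and a fibroblast matrix protein, stood at 7.87 CPM and then at 967 and 73.7 CPM, unequal in the same direction as the members. Which of these genes counts as higher on the second exposure thus differed by library for Socs1 and not for Arg1 or Fn1.

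In comparisons that do not use the restimulated wild-type group, each tested with limma on log2(CPM + 1) with Benjamini-Hochberg adjustment over all genes tested, only members at 1 CPM or more in either group entered. The choice of the members had all groups in view, so these counts describe them and are read against the share of all genes called. In the antagonist experiment 27 members stood below 1 CPM in all 8 libraries, and 4 (Thbs1, Acta2, Tagln, Timp3) were tested. Thbs1 fell with IL-4 for 24 h, from 234 and 182 CPM with vehicle to 12.8 and 12.6 CPM, by 3.92 on the log2 scale (SE 0.25, limma adjusted p = 0.00011), while 18.2% of all genes were called. The other 3 did not pass, and Acta2, for one, stood at 1.26 and 3.89 CPM with vehicle and at 4.28 and 0.784 CPM with IL-4, so that its groups overlap.

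GW9662 alone called 0 of the 4 members and 0% of all genes by limma (Timp3 and Tagln at an unadjusted p under 0.05, 257 genes in all, and 0 members and 9 genes with limma-voom on the recovered reads). Thbs1 stood at 183 and 199 CPM with GW9662, within the vehicle libraries. IL-4 plus GW9662 against IL-4 also called 0 of 4 and 0% of all genes (0 members and 1 gene at an unadjusted p under 0.05, 7 genes with limma-voom), with Thbs1 at 12.2 and 10.6 CPM. The IL-4 response with GW9662 minus that without called 0 of 4 and 0% of all genes, at a lowest adjusted p over the members of 0.9995.

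Libraries fell into kinds by how much was counted for genes with close copies (50% or more of their sampled 50-base words found elsewhere), which stood at medians of 33.7 to 34.7 CPM in 3 and 10.95 to 13.3 CPM in 5 antagonist libraries. Acta2 moved with this: it stood at 3.89, 4.28 and 4.31 CPM in the 3 high and 0.532 to 1.80 CPM in the 5 low libraries, and the part of the kind in its level was not tested. In the memory experiment 7 wild-type libraries were high (30.8 to 41.7 CPM), and the shallower washed-out wild-type library and all 8 knockout-labelled libraries were low (11.7 to 14.4 CPM).

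A first IL-4 exposure of wild-type cells called 2 of 10 tested members, while 49.8% of all genes were called. Thbs1 stood at 23.8 and 35.7 CPM before and at 7.58 and 9.06 CPM after 3 h, and fell by 1.70 (SE 0.43, limma adjusted p = 0.0040). Postn stood at 0.835 and 0.110 CPM before and 0.891 and 1.54 CPM after, and rose by 0.62 (SE 0.24, limma adjusted p = 0.044), at 1 to 16 reads per library. Neither was called without group weights in the fit or without the shallower never exposed library. The call of Postn was lost under 6 of 12 alternatives, also without a minimum level, with limma-voom, with library kind as a term and without the 4 libraries of the highest member sums (adjusted p by limma 0.0123 to 0.631 over the 12). The collagens did not pass: Col1a1 stood at 2.82 and 2.21 CPM before and 2.50 and 2.31 CPM after. After IL-4 and washout, 2 of 9 members were called and 14.4% of all genes. Thbs1 rose by 1.87 (SE 0.54, limma adjusted p = 0.030), to 93.4 and 128 CPM. Col4a2 fell by 1.55 (SE 0.44, limma adjusted p = 0.029), from 2.30 and 2.76 CPM to 0.301 and 0.113 CPM. Neither was called without group weights, without the minimum of 1 CPM, without the deeper never exposed or without the shallower washed-out library. Thbs1 was also lost without either restimulated wild-type library, which enter the shared estimate of spread, and Col4a2 without the shallower never exposed library.

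In knockout-labelled cells the first IL-4 exposure called 5 of 19 tested members, against 44.1% of all genes. Timp3 stood at 0.183 and 0.117 CPM before and at 0.833 and 4.91 CPM after, a rise of 1.52 (SE 0.42, limma adjusted p = 0.0082). Sparc, Acta2 and Serpinh1 rose as well, by 1.26, 1.27 and 0.89. Each of these 4 was highest in the shallower of the first-exposed libraries, the one with a member sum of 89.1 CPM. Which members were called in this comparison changed with either first-exposed library left out, in fits that leave 1 library in that group. Without group weights, and with limma-voom on the recovered reads, 0 were called. Thbs1 fell by 1.36 (SE 0.44, limma adjusted p = 0.020), from 23.6 and 25.2 CPM to 3.06 and 23.0 CPM, and the higher of these is again the shallower library. Its call was lost with each of the other 5 libraries left out, while Timp3 and Sparc remained called without either never exposed library.

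After washout, 2 of 8 members were called in knockout-labelled cells and 20.1% of all genes. Thbs1 rose by 1.66 (SE 0.44, limma adjusted p = 0.015), from 23.6 and 25.2 CPM to 83.7 and 74.8 CPM. Acta2 rose by 1.28 (SE 0.41, limma adjusted p = 0.039), from 1.37 and 0.699 CPM to 2.63 and 5.49 CPM, the latter in the shallower library with a member sum of 40.1 CPM. Neither was called without group weights, and leaving out any 1 of 6 libraries left 0 or 1 of them called. Restimulation of washed-out knockout-labelled cells called 2 of 9 members and 35.8% of all genes. Thbs1 fell by 4.02 (SE 0.46, limma adjusted p = 4.72e-06), to 4.19 and 3.72 CPM. Postn rose by 1.42 (SE 0.26, limma adjusted p = 0.00038), from 0 and 0.141 CPM to 1.75 and 2.00 CPM, a call that was lost without group weights and with limma-voom. Which members were called also changed without the deeper washed-out library, in a fit that leaves 1 library in that group. The other members tested did not pass, and the sum of the 30 members stood at 12.1 and 11.3 CPM in the restimulated knockout-labelled libraries.

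Knockout-labelled against wild-type cells that never met IL-4, 4 of 7 tested members were called, all lower, against 18.3% of all genes. Acta2 stood at 5.11 and 5.52 CPM in wild type and 1.37 and 0.699 CPM in the knockout-labelled libraries, and was lower by -1.65 (SE 0.39, limma adjusted p = 0.0080). Col1a1 stood at 2.82 and 2.21 CPM against 0.183 and 0.117 CPM (-1.61, SE 0.44, adjusted p = 0.018 by limma), and Col1a2 at 2.19 and 3.31 CPM against 0.0913 and 0.350 CPM (-1.61, SE 0.48, adjusted p = 0.030 by limma). Col4a2 stood at 2.30 and 2.76 CPM against 0.639 and 0.233 CPM (-1.31, SE 0.35, adjusted p = 0.016 by limma). The groups of all 4 did not overlap, but the share of all genes without overlap is not given here. With 2 libraries per group, this adds no support to the calls. Both never exposed wild-type libraries are of the high and both knockout-labelled ones of the low kind, so kind and genotype cannot be told apart here. The 4 calls were lost without group weights, with limma-voom, and without either wild-type library or the shallower knockout-labelled one, and that of Col1a2 with any 1 of 6 libraries left out.

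After the first exposure the genotypes called 0 of 21 members (2 at an unadjusted p under 0.05, lowest limma adjusted p 0.145) while 9.12% of all genes were called, and after washout 0 of 10 (0 at an unadjusted p under 0.05, lowest limma adjusted p 0.21) while 3.25% were. Without the 4 libraries of the highest member sums, the difference of Col1a1 between the first-exposed genotypes was -1.77. That fit leaves 1 first-exposed knockout-labelled library, with Col1a1 at 0 CPM, and drops the one at 4.21 CPM. Both first-exposed wild-type libraries are of the high kind and both knockout-labelled ones of the low kind. Kind and genotype therefore cannot be told apart in this comparison either. Which members were called between the first-exposed genotypes depended on which first-exposed knockout-labelled library was left out, in fits that leave 1 library in that group. No difference between the responses of the genotypes passed the test for a member. The first response, knockout-labelled minus wild type, called 0 of 21 (0.0348% of all genes) and the washed-out response 0 of 11 (0% of all genes), at lowest limma adjusted p-values of 0.363 and 0.636. A call in 1 genotype and not in the other, as for Timp3 or Col4a2, is therefore not shown to be a difference between them.

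**Figure D5:**
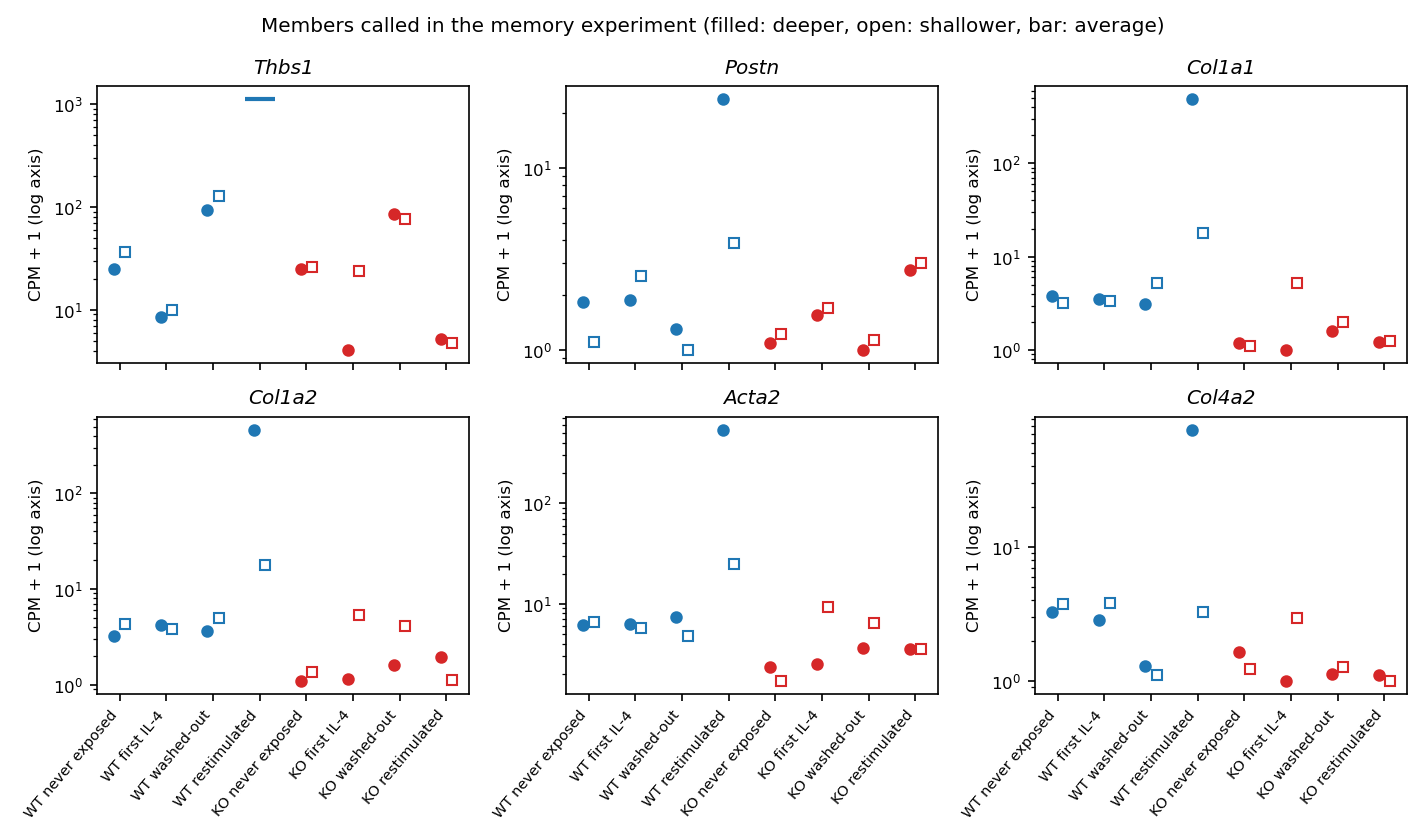
Level of 6 members in each library of the memory experiment, as CPM plus 1 on a log axis, for wild type (blue) and knockout-labelled (red) groups, with filled points for the deeper, open points for the shallower library and a bar for the unseparated mean of Thbs1. Thbs1 is low after IL-4 for 3 h and high after washout in both genotypes, apart from its restimulated wild-type mean of 1129 CPM and the shallower first-exposed knockout-labelled library at 23.0 CPM.

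Other genes of the pathways that act on the members were tested from 3 lists. Beside each count stands the share of all genes called. Of the collagen modification and secretion genes, the first exposure of wild-type cells called 4 higher and 3 lower of 13, of the TGF-beta pathway 2 higher and 4 lower of 17, and of the YAP, TEAD and SRF genes outside the members 3 higher and 3 lower of 11 (49.8% of all genes). In knockout-labelled cells the same counts were 1 and 4 of 13, 3 and 7 of 17, and 4 and 3 of 12 (44.1%). With IL-4 for 24 h they were 5 and 2 of 13, 1 and 4 of 15, and 4 and 1 of 11 (18.2%). Each of these lists moved in both directions, and none was read as a set. Genes of these lists were also counted at 1 CPM or more in the deeper restimulated wild-type library and at least 10 times the shallower one. They were 9 of 24, 5 of 21 and 8 of 20. The 2.68% of all genes with that ratio was counted at 10 CPM or more, so these shares are not like for like.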

How the data were processed

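The authors deposited 1 table per experiment with 23420 genes and 1 column per group. Its unit is recorded here as signal, since each deposited value is the mean CPM (reads scaled to library size) of both libraries of a group. The submitters' processing notes name the mm10 genome, Cufflinks 2.0.2 and TopHat2 2.0.7. What each did to the tables, and whether strand was used, is not given in the sources used here. TruSeq poly-A libraries were made from Trizol RNA and sequenced on a HiSeq, per the labels' protocols, which give the RNA input as both 2.5 and 1 ug.

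From these means, the value of 1 read in each library was estimated and each mean was split into a pair of whole reads. Of 171808 values above 0, 170832 had 1 solution, 976 had several and 0 had none. Splitting and fitting were tested on simulated data. The planned analysis foresaw averaged columns with no test, or limma if libraries could be separated.

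The test was limma-trend 3.58.1 (R 4.3.3) on log2(CPM + 1), with 1 coefficient and 1 variance weight per group, all libraries of a table in the fit and the tables never joined. Genes at 1 CPM or more in either group were tested, and a gene was called at a Benjamini-Hochberg adjusted p under 0.05. Where a mean had several solutions, the mean itself was used once, at weight 2. The weights ranged from 0.0796 for the restimulated wild-type group to 2.66 for GW9662. Library kinds were set from 251 and 277 genes that share sequence. The members, the marker, pathway and IL-4 lists and the comparisons were chosen with earlier results of these data known. Named genes are the members, with the highest genes of each list and Lyz2. Alternatives were a pseudocount of 0.25, no minimum, median scaling, no group weights, limma-voom and each library left out, and, chosen after seeing the data, library kind as a term and the 4 libraries with the highest member sums left out.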

Additional observations from a re-analysis of the deposited data

How the results depend on the processing

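No paired analysis was possible because the columns are means of 2 libraries that carry no replicate number. A pseudocount of 0.25 and median scaling (factors 0.972 to 1.03) kept each count of called members within 1.5 times, and no result changed direction. Members called in the first wild-type exposure (2), wild-type washout (2), first knockout-labelled exposure (5), knockout-labelled washout (2), knockout-labelled restimulation (2) and never exposed genotypes (4) came to 1, 0, 1, 0, 2 and 1 without a minimum level, to 0, 0, 0, 0, 1 and 0 without group weights, and to 1, 1, 0, 1, 1 and 0 with limma-voom. With library kind as a term, chosen after seeing the data and with Thbs1 left out of the memory fit since it was not separated in every library, they came to 0, 0, 11, 1, 1 and 0, and GW9662 against vehicle to 1 (Timp3). Without the 4 libraries with the highest member sums, also chosen after seeing the data, the first and washed-out knockout-labelled comparisons each called 1 (Thbs1), and the first-exposed genotypes 1 (Col1a1). Leaving out 1 library at a time, with the lone library assumed to vary like the others, gave 1 to 1 for IL-4 for 24 h, 0 to 0 for GW9662, for GW9662 added to IL-4 and for the washed-out genotypes, 0 to 2 for the first wild-type exposure and for wild-type washout, 1 to 21 for the first knockout-labelled exposure, 0 to 1 for knockout-labelled washout, 2 to 4 for knockout-labelled restimulation, 0 to 3 for the never exposed and 0 to 4 for the first-exposed genotypes. With 1 library left out, the member medians without a test ranged from 2.30 to 6.87 (restimulated against washed-out wild type), 2.33 to 6.92 (second against first exposure) and -7.29 to -2.84 (knockout-labelled against wild type, restimulated), and were nearest 0 without the deeper restimulated wild-type library. With a pseudocount of 0.25 they were 6.94, 6.62 and -7.77. The fall of Thbs1 was called under all 10 alternatives with IL-4 for 24 h and all 12 in knockout-labelled restimulation. The cause of the other changes was not tested. For fits with 1 library left out, the share of all genes called is not given here. Their counts of members therefore show only that the calls depend on single libraries. At 3 reads the floor is up to 0.526 CPM, so levels of the collagens in most libraries rest on a few reads, and a member that did not pass may still differ.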

Other observations

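Ccl24, a chemokine for eosinophils, stood at 11.3 CPM after the first exposure and at 36.4 and 85.6 CPM in the deeper and shallower restimulated wild-type libraries. Ear11, an eosinophil-associated ribonuclease, stood at 0.84 CPM and then at 25 and 56.9 CPM. Both were higher in the shallower library, the opposite of the members, and both have short transcripts (1295 and 690 bases), a length at which the shallower library was the higher for most genes. Retnla, whose mean could not be separated, had a group mean of 102 CPM after the first and 4480 CPM after the second wild-type exposure, and 75.3 and 3377 CPM in knockout-labelled cells. Chi3l3, also not separated in that group, had group means of 36.3 and 1003 CPM in wild type and 25.7 and 697 CPM in knockout-labelled cells. Arg1 had group means of 90.8 and 194 CPM and Fn1 of 11.3 and 46.3 CPM in knockout-labelled cells, where neither restimulated library held a high sum of the members.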
